A study of Mus musculus with 8 samples.

Results

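Chromatin accessibility was examined at 10 mouse genes of the NF-kB system. They are the subunit genes Nfkb1, Nfkb2, Rel, Rela and Relb, the inhibitor and feedback genes Nfkbia, Nfkbiz, Bcl3 and Tnfaip3, and Birc3, a signalling ligase gene that NF-kB itself induces. Members were taken by gene symbol: every region that the deposited count table assigns to one of the 10 genes was taken once, which gave 79 of 46624 distinct regions. The filter on low counts kept 74 of these for testing, among 45709 regions in all. The other 5 (2 at Nfkbiz and 1 each at Tnfaip3, Nfkb1 and Bcl3) held 0 to 41 counts in any library and are not counted below. Tnfaip3 had 21 tested regions, Nfkb1 18, Nfkbiz 10, Rel and Birc3 6 each, Nfkb2, Relb and Nfkbia 3 each, and Rela and Bcl3 2 each.

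The assay was ATAC-seq: a transposase enters open chromatin and tags it for sequencing. Levels are counts per 1000000 counts of a library (CPM). All cells came from C57BL/6 mice with a red fluorescent protein (RFP) reporter for Foxp3, the lineage factor of regulatory T cells (Tregs), and each library held cells of 3 pooled mice. The 4 groups of 2 libraries were RFP+ Tregs of male visceral adipose tissue (VAT), RFP+ Tregs of female VAT, RFP- CD4+ T cells of male VAT (male VAT CD4 cells below) and RFP+ Tregs of male spleen. Ages and treatments are not given in the labels. The series asks about sexual dimorphism of Tregs, and no female spleen library was analysed here, so a comparison of female VAT with spleen changes tissue and sex together and the 2 cannot be told apart.

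NF-kB subunits pair into dimers that IkB proteins hold inactive. In the canonical pathway, antigen and cytokine receptors lead to the loss of IkB alpha, the product of Nfkbia, and free the products of Rela, Rel and Nfkb1. In the non-canonical pathway the precursor made by Nfkb2 is cut and pairs with RelB. The dimers then induce several of their own inhibitors, which closes a feedback loop. In Tregs, c-Rel is needed for the development of the lineage in the thymus, and VAT Tregs are known for an activated state shaped by antigen and by the alarmin receptor ST2.

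The start windows of 4 members whose start regions were called more open in male VAT than in male spleen Tregs with all libraries are shown first, since NF-kB is known to act on several of its own genes through sequences near their starts. Each runs 5′ to 3′ on the gene's strand (here the minus strand) from 250 bases before to 50 bases after an annotated start, is credited to RefSeq (GRCm38.p6), and has matches to the 10-letter NF-kB consensus, read on both strands, in capitals.
Tnfaip3, chr10:19015361-19015660: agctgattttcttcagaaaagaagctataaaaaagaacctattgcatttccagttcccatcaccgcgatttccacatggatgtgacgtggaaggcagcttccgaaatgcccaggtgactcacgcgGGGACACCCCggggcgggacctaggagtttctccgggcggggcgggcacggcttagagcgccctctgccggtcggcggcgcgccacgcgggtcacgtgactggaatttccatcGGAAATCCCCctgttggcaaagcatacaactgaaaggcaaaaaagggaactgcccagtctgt
Nfkbia, chr12:55492598-55492897: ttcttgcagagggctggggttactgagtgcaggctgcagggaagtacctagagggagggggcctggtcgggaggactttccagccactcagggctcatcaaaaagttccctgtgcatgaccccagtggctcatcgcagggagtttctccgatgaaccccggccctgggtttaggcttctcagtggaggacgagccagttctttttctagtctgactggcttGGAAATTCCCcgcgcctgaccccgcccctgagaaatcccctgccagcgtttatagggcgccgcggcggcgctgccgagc
Rel, chr11:23770920-23771219: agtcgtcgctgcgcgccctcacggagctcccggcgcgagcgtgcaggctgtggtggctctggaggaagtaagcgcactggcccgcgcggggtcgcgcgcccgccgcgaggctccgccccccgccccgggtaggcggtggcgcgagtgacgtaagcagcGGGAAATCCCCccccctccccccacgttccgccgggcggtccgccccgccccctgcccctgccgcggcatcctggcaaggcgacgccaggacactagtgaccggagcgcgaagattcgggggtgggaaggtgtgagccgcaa
Birc3, chr9:7873121-7873420: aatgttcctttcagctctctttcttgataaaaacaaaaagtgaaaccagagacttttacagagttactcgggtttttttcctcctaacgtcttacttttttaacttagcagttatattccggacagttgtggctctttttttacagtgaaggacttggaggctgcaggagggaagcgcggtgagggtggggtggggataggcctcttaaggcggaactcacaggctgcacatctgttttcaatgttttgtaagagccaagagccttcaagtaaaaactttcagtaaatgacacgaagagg
The matches begin 125 and 12 bases before the start of Tnfaip3, 29 bases before that of Nfkbia and 92 bases before that of Rel. The capitals of Rel are a pair of overlapping matches on opposite strands. The Birc3 window holds no such letters. In male VAT against male spleen Tregs the start regions had log2 fold changes of 0.73 (Tnfaip3), 0.73 (Nfkbia), 0.67 (Rel) and 1.11 (Birc3). Without male VAT Treg replicate 1 these were 0.42, 0.27, 0.28 and 0.84. A link between matches and openness was not tested. RefSeq windows were at hand for 7 of the 10 members, 10 windows in all, and every one lay inside a tested region. The consensus was found in 7 of the 10 windows and at 5 of the 7 genes (Nfkb2, Rel, Nfkbia, Tnfaip3 and Bcl3), 2 of the Nfkb2 windows sharing a match. Over all RefSeq windows of this length the share was 4.51% of 32851 windows, or 5.14% of 27025 genes. The core TGANTCA of AP-1, searched on both strands, stood in 2 member windows, one of Tnfaip3 and one of Nfkb2, and in 7.81% of all windows. A match of letters is a description of the sequence and not a measured site.

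The counts used ran from 5724685 to 15805270 per library, of which 4122 to 21082 lay in the tested member regions. They cover regions with a gene on chromosomes 1-19, X and Y. Mitochondrial regions, left out, held 22.6 to 34.1% of all counts. The table's regions fall into short ones, under 1000 bp, and long ones. Male VAT Treg replicate 1 stood apart: 5.63% of its counts lay in short regions, against 3.64 to 4.42% in the other 7 libraries, so results that rest on it are given with and without it. Uty, a Y-linked gene, matched the labelled sex, with 73 to 249 counts in the male libraries and 0 in both female ones. Treg markers summed to 475 to 690 CPM in male VAT Tregs, 603 to 614 CPM in female VAT Tregs, 386 to 477 in male VAT CD4 cells and 494 to 518 in male spleen Tregs, over 58 regions of 6 of 6 listed genes. Fits without male VAT Treg replicate 1 leave replicate 2 as the only library of its group. Replicate 2 was the lowest library for T cell markers (287.7 CPM, against 312.2 to 421.9 in the others). The same held for B cell (74.7 against 103.5 to 110.3) and myeloid markers (99.5 against 116.1 to 154.7). It was not the lowest for markers of Tregs, of VAT Tregs (351.6 CPM) or of stromal and endothelial cells (204.5 CPM). Markers of B, myeloid, CD8, NK, fat, stromal and endothelial cells had 61 tested regions at 21 of 28 genes. None of these was at 0 in every library, edgeR called 0 of them higher in any of the 4 comparisons, and it called 4 lower in male VAT Tregs against male spleen Tregs, 0 in female VAT Tregs against male spleen Tregs, 1 in male against female VAT Tregs and 2 in male VAT Tregs against male VAT CD4 cells. Over all regions 4.64, 1.18, 2.04 and 5.18% were called higher in these 4 comparisons, and 2.09, 0.197, 1.21 and 2.51% lower. In such bulk libraries, more cells with an open site and more cuts per cell cannot be told apart.

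Male VAT Tregs were set against male spleen Tregs to compare the tissues within a sex. Of the 74 member regions, 27 were higher in VAT and 0 were lower at an adjusted p under 0.05 (edgeR quasi-likelihood test, Benjamini-Hochberg over all 45709 regions), against 6.73% of all tested regions called in either direction, 4.64% called higher and 2.09% called lower. Each p measures the spread between libraries of pooled mice. The 27 lay at 7 of the 10 genes: 14 at Tnfaip3, 6 at Nfkb1, 3 at Nfkbiz and 1 each at Nfkb2, Rel, Nfkbia and Birc3. At Rela, Relb and Bcl3 none was called. The median log2 fold change was 0.64 over the member regions and -0.01 over all regions, and 57 of 74 members lay above 0, against 49.3% of all regions. Of the short members 21 of 52 were higher, with 10.2% of all short regions as background, and of the long ones 6 of 22, with 1.54% as background. At an unadjusted p under 0.05, 36 members were higher and 1 was lower. The share of all regions at that threshold was not taken, so this count has no background beside it. In the fit that omits male VAT Treg replicate 1 the median was 0.26 over members and -0.01 over all regions. There 49 of 75 members lay above 0. Without male VAT Treg replicate 1, 13 of 75 were higher and 0 lower, beside 1.55% of all regions called higher. All 27 regions still had a log2 fold change above 0 there, and the 13 called (9 of them at Tnfaip3) were all among the 27.

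Female VAT Tregs, set against the same male spleen libraries, had 9 of 74 member regions higher and 0 lower, with 1.38% of all regions called in either direction, 1.18% higher and 0.197% lower. All 9 were at Tnfaip3. Of the short members 7 of 52 were higher (2.07% of all short regions) and of the long ones 2 of 22 (0.692%). The median log2 fold change was 0.22 over members and -0.00 over all regions. At an unadjusted p under 0.05, 21 were higher and 1 lower, again with no share of all regions taken at that threshold. The count was 5 of 79 without male spleen Treg replicate 2, 5 without female VAT Treg replicate 1 and 5 without female VAT Treg replicate 2, beside 0.565%, 0.418% and 0.568% of all regions called higher in those fits.

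Male against female VAT Tregs, the comparison of the sexes, gave 6 member regions higher in males and 0 lower, with 3.26% of all regions called in either direction, 2.04% higher and 1.21% lower. Of these 5 were short (4.68% of all short regions called higher) and 1 was long (0.572%). They were 3 at Nfkb1 and 1 each at Nfkbiz, Tnfaip3 and Birc3, and the median was 0.32 over members and 0.01 over all regions. At an unadjusted p under 0.05, 21 were higher and 4 lower, also without a share of all regions at that threshold. The count moved with single libraries: it was 0 of 75 without male VAT Treg replicate 1 (0.509% of all regions called higher), 14 of 79 without male VAT Treg replicate 2 (2.7%), and 1 of 79 without either female library (0.586% and 0.673%). In the fit that omits male VAT Treg replicate 1 the median over members was 0.02, and 3 regions, at Nfkbia, Rela and Relb, were lower in males, that is 3 of 75 beside 2.41% of all regions called lower.

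Male VAT Tregs against male VAT CD4 cells, the comparison of the cell types, gave 20 member regions higher in Tregs and 0 lower, with 7.69% of all regions called in either direction, 5.18% higher and 2.51% lower. Of the short members 17 of 52 were higher (10.3% of all short regions) and of the long ones 3 of 22 (2.35%). By gene, 9 were at Tnfaip3, 6 at Nfkb1, 3 at Rel and 1 each at Nfkbia and Nfkbiz. The median was 0.54 over members and -0.02 over all regions, and 0.17 and -0.03 without male VAT Treg replicate 1. The count was 2 of 75 without male VAT Treg replicate 1, beside 1.83% of all regions called higher in that fit. It was 7 of 79 without male VAT CD4 replicate 1 (2.53%) and 10 of 79 without male VAT CD4 replicate 2 (3.35%). All 20 regions had a log2 fold change above 0 without male VAT Treg replicate 1. The comparisons share libraries, so their counts are not independent of one another. Calls that ended with a library left out are given with the value without it. Calls that ended under another test or setting are given with its name: DESeq2, limma-voom, limma-trend on the deposited log2 CPM, scaling by library size alone, TMM scaling on short or on long regions, no low-count filter, a fit of only the groups compared, or a replicate block.

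**Figure D1:**
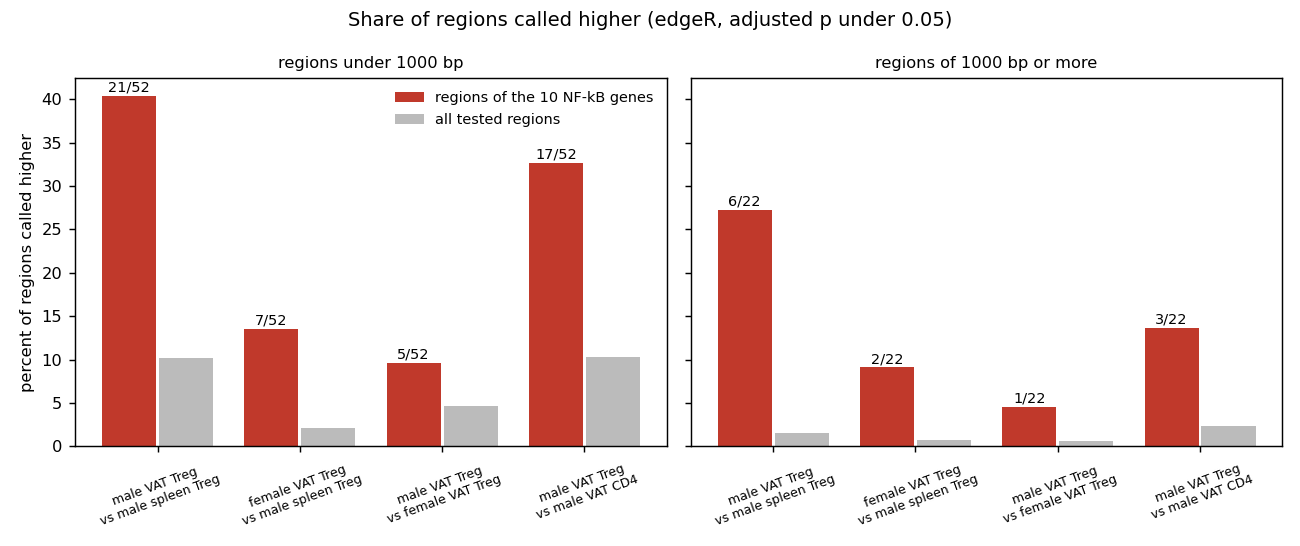
Percent of regions called higher (edgeR, adjusted p under 0.05) among the regions of the 10 NF-kB genes and among all tested regions, in each comparison, for regions under 1000 bp (left) and of 1000 bp or more (right), with the counts above the bars. In male VAT against male spleen Tregs the members reached 21 of 52 short and 6 of 22 long regions, against 10.2% and 1.54% of all regions.

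**Figure D2:**
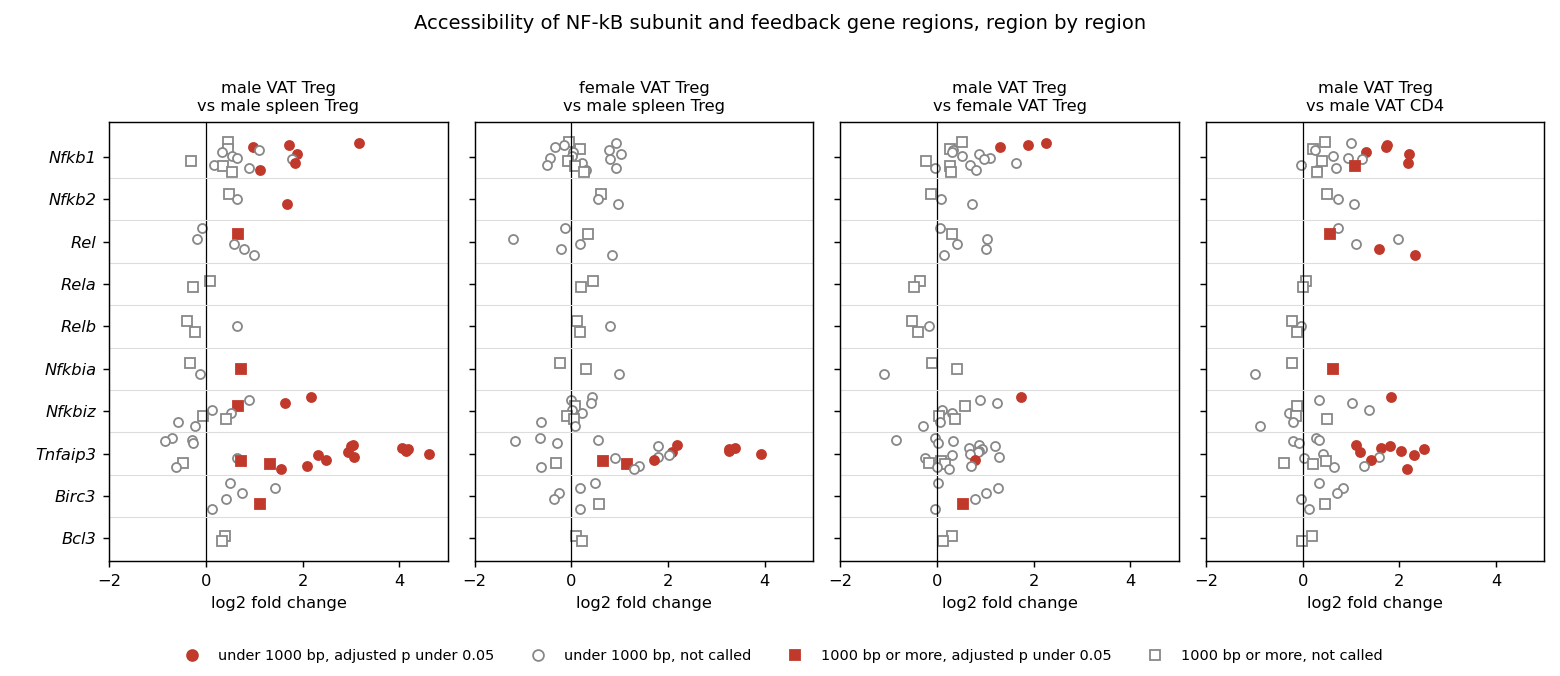
Log2 fold change of each of the 74 member regions, by gene (rows) and comparison (panels). Filled marks are regions with an adjusted p under 0.05, circles are regions under 1000 bp and squares longer ones; in the panel of female VAT against male spleen Tregs all 9 filled marks are at Tnfaip3.

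Tnfaip3 encodes A20, a ubiquitin-editing enzyme that shuts off signalling to NF-kB and is itself induced by NF-kB. Regions in and just behind its gene body were more open in VAT Tregs of both sexes than in spleen Tregs. The gene lies on chromosome 10 from 19000910 to 19015410 on the minus strand. The region with the smallest p, from 19001610 to 19002603 in the last part of the gene body, held 15.4 and 7.99 CPM in male VAT Tregs, 6.68 and 6.57 CPM in female VAT Tregs, 5.77 and 4.76 CPM in male VAT CD4 cells and 0.969 and 1.91 CPM in male spleen Tregs. Every VAT library lay above both spleen libraries, and both male VAT Treg libraries lay above all others. The log2 fold change was 2.93 ± 0.32 (SE) in male VAT against male spleen Tregs (adjusted p = 2.00e-15) and 2.09 ± 0.34 in female VAT against male spleen Tregs (adjusted p = 9.80e-07). Against male VAT CD4 cells it was 1.19 ± 0.30 (adjusted p = 0.00244), a call that did not hold without male VAT CD4 replicate 2 (1.04) or male VAT Treg replicate 1 (0.61), and ended under DESeq2 and TMM on short regions. The value against spleen was 2.36 without that last library (adjusted p = 2.94e-06).

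The next by p was the region from 19009258 to 19009751, nearer the start in the gene body. It held 17.9 and 11.4 CPM in male VAT Tregs, 8.67 and 8.44 CPM in female VAT Tregs, 5.58 and 5.48 CPM in male VAT CD4 cells and 2.54 and 2.69 CPM in male spleen Tregs. The 4 groups did not overlap. Its log2 fold change was 2.49 ± 0.28 in male VAT against male spleen Tregs (adjusted p = 1.35e-14), 1.70 ± 0.29 in female VAT against male spleen Tregs (7.10e-06) and 1.42 ± 0.28 in male VAT Tregs against male VAT CD4 cells (3.49e-05). These 3 calls held without any 1 library and under every alternative run. In male against female VAT Tregs it was 0.79 ± 0.25 (adjusted p = 0.0485), and this call did not hold without male VAT Treg replicate 1 (0.41), female VAT Treg replicate 1 (0.81) or female VAT Treg replicate 2 (0.77). It also ended under DESeq2, library size alone, TMM on short regions, the replicate block and limma-trend.

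Just past the end of the gene, 1.09 kb downstream, the region from 18999286 to 18999821 followed the same order of groups by mean. It held 12.2 and 7.57 CPM in male VAT Tregs, 5.18 and 5.86 CPM in female VAT Tregs, 3.08 and 6.05 CPM in male VAT CD4 cells and 1.33 and 1.13 CPM in male spleen Tregs. Of the 4 groups, the female VAT Treg and male VAT CD4 libraries overlapped. Its log2 fold change was 3.04 ± 0.35 in male VAT against male spleen Tregs (adjusted p = 5.50e-14) and 2.18 ± 0.37 in female VAT against male spleen Tregs (4.86e-06).

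Together, 11 regions inside the gene body or within 2 kb behind it covered 3.51 kb and held 78.6 and 47.4 summed CPM in male VAT Tregs, 37.6 and 38.3 CPM in female VAT Tregs, 25.8 and 27.7 CPM in male VAT CD4 cells and 9.57 and 9.85 in male spleen Tregs. The groups did not overlap in this sum. It leaves out the long start region, which runs over the edge of the gene body and where male VAT Tregs overlapped the female VAT Tregs and the CD4 cells. Of the 11 regions, all short, 10 were called higher in male VAT against male spleen Tregs, beside 10.2% of all short regions. Several were nearly closed in spleen. The region from 19002931 to 19003164 held 88 counts in male VAT Tregs (65 and 23 by library) and 3 in male spleen Tregs (3 and 0). That is a ratio of 29.1 after scaling (95% exact interval 9.65 to 144, counting error only). The region from 19001203 to 19001304 held 62 counts in male VAT Tregs (43 and 19) and 3 in male spleen Tregs (1 and 2), a ratio of 20.5 (6.71 to 102). In female VAT Tregs the same regions held 39 and 23 counts, ratios of 17.5 (5.57 to 88.6) and 10.3 (3.12 to 53.8) against male spleen Tregs. These regions were picked for holding at most 3 spleen counts, and the intervals pool the libraries of a group, so the ratios are only a description.

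Farther out, Tnfaip3 was assigned a long region 45.2 kb upstream, from 19060610 to 19064261, which overlaps the predicted gene Gm51814. It held 132 and 91.7 CPM in male VAT Tregs, 98.9 and 101 CPM in female VAT Tregs, 77.8 and 114 CPM in male VAT CD4 cells and 43.3 and 46.4 CPM in male spleen Tregs. The VAT groups overlapped each other and all lay above spleen, with log2 fold changes of 1.32 ± 0.17 in male (adjusted p = 5.50e-11) and 1.16 ± 0.17 in female VAT Tregs (6.28e-08) against male spleen Tregs. Both calls held under every alternative. The start region, from 19011789 to 19019100, held 71.8 and 48.7 CPM in male VAT Tregs, 58.5 and 56.4 CPM in female VAT Tregs, 32.9 and 53.2 CPM in male VAT CD4 cells and 38.4 and 34.9 CPM in male spleen Tregs. Both Treg groups of VAT lay above spleen there, while the CD4 libraries spanned a wider range. It was higher than in spleen by 0.73 ± 0.18 in male (adjusted p = 0.00227) and 0.65 ± 0.18 in female VAT Tregs (0.0283) on the log2 scale. The male call did not hold without male VAT Treg replicate 1 (0.42) or male spleen Treg replicate 2 (0.66), and the female call without any 1 of the 4 libraries (0.58 to 0.72). TMM on short regions ended both calls, and the female one also ended under DESeq2, library size alone, TMM on long regions, the replicate block and limma-trend.

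Of the 14 Tnfaip3 regions called in male VAT against male spleen Tregs, 9 kept the call without each library in turn. The 5 others were the start region above and 4 short regions. Without male VAT Treg replicate 1 the values of these short regions, from low to high coordinate, were 1.27 (start 19005397), 2.42 (19006400), 1.37 (19065381) and 1.01 (19078140), against 2.32, 3.06, 2.10 and 1.55 with all libraries. The first was also lost without male spleen Treg replicate 1 (1.78), and the last pair without male spleen Treg replicate 2 (1.89 and 1.43). DESeq2 ended those starting at 19005397 and 19065381. In female VAT against male spleen Tregs, 4 of 9 regions kept the call without each library, and all 9 stayed above 0. The region from 19000595 to 19000800 was lost without female VAT Treg replicate 2 (2.79, against 3.38). The one starting at 19002931 was lost without male spleen Treg replicate 2 (2.47) or female VAT Treg replicate 1 (3.36), and the one starting at 19001382 without male spleen Treg replicate 2 (2.72) or either female library (3.13 and 3.36), and under DESeq2 and limma-voom. The one starting at 19001203 was lost without any 1 library (3.07 to 3.43) and under every other setting except DESeq2 size factors in edgeR and a fit of only these groups.

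The other Tnfaip3 regions did not pass the test against spleen in either sex. They include 4 short regions 35.9 to 59.3 kb downstream, with log2 fold changes of -0.84 to -0.27 in male VAT against male spleen Tregs, and a long region 27.1 kb upstream with 8.36 and 7.67 CPM in male VAT Tregs, 9.37 and 8.68 CPM in female VAT Tregs, 9.05 and 11.7 CPM in male VAT CD4 cells and 8.84 and 13.2 CPM in male spleen Tregs. The regions called in male VAT against male spleen Tregs were those at the start, in the body and just behind it, and 3 of the upstream ones, 45.2 to 62.7 kb away.

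Against male VAT CD4 cells, 9 short Tnfaip3 regions were higher in male VAT Tregs. These include the 3 short regions above, of which that behind the gene had 1.10 ± 0.32 (adjusted p = 0.0118), lost without male VAT Treg replicate 1 (0.69) or male VAT CD4 replicate 1 (0.73) and under DESeq2 and TMM on short regions. The one 62.7 kb upstream, from 19078140 to 19078419, had the second smallest p. It held 7.09 and 3.84 CPM in male VAT Tregs, 4.69 and 4.69 CPM in female VAT Tregs, 1.54 and 1.01 CPM in male VAT CD4 cells and 2.06 and 1.79 CPM in male spleen Tregs. Both Treg groups of VAT lay above CD4 and spleen cells. Male VAT Tregs exceeded CD4 cells by 2.15 ± 0.46 (adjusted p = 2.52e-04), and by 1.61 without male VAT Treg replicate 1, where the call did not hold. The other 5 calls, with values of 1.62 to 2.51, were each lost without male VAT Treg replicate 1 (1.23 to 2.26) and under DESeq2. Each was also lost without male VAT CD4 replicate 1 (1.77 to 2.44) or 2 (1.41 to 2.65). Those starting at 19000595, 19001203 and 19001382 were lost without male VAT Treg replicate 2 as well (1.73, 2.69 and 2.03). Of the 5, all but that starting at 19000056 were also lost under limma-voom, limma-trend and TMM on short regions. That starting at 19005397 was lost with the replicate block too. Of all 9, that from 19009258 kept its call without each library. Between the sexes it was the one Tnfaip3 call.

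**Figure D3:**
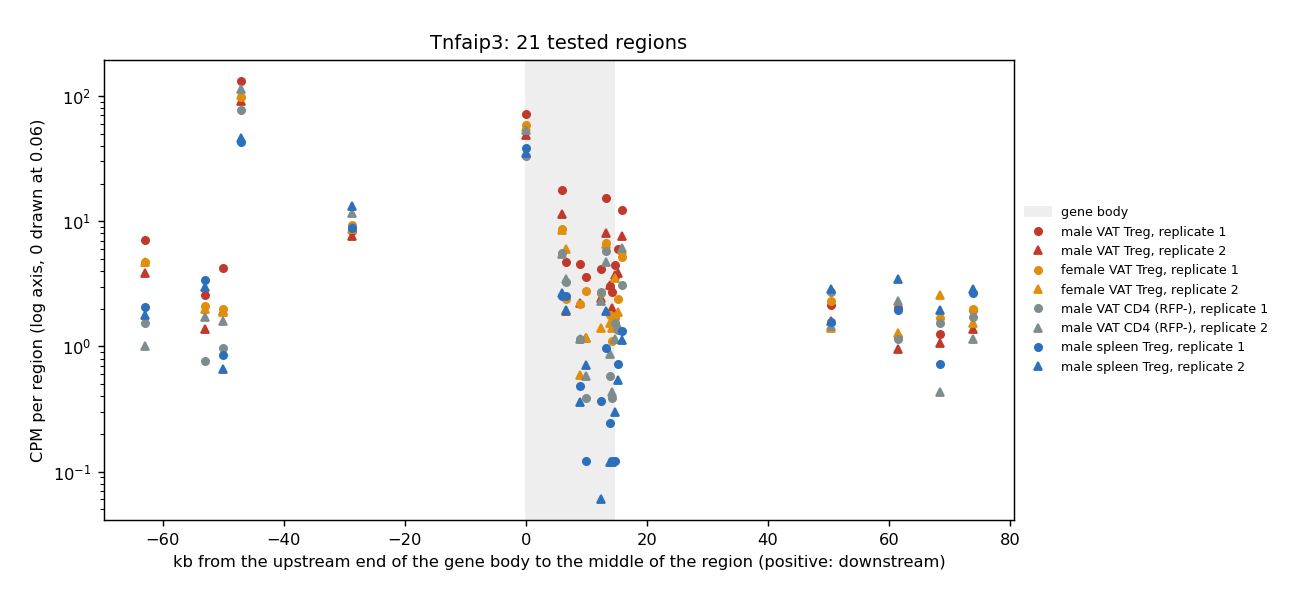
CPM of the 21 tested Tnfaip3 regions in each of the 8 libraries, by distance in kb from the upstream end of the gene body to the middle of the region; the shaded band is the gene body, circles and triangles are replicates 1 and 2, and the axis is logarithmic with 0 drawn at 0.06. The male spleen Treg points (blue) lie below the VAT points over most of the body, just behind it and at the long region 45.2 kb upstream, and not at the 4 regions far downstream.

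Nfkbia encodes IkB alpha, the inhibitor that holds canonical dimers in the cytoplasm and is resynthesised when they act. A region that spans its whole gene, on chromosome 12 from 55487476 to 55496399, held 172 and 98.99 CPM in male VAT Tregs, 98.0 and 105 CPM in female VAT Tregs, 92.8 and 83.5 CPM in male VAT CD4 cells and 77.3 and 86.7 CPM in male spleen Tregs. The male VAT Treg libraries lay above both CD4 and both spleen libraries and overlapped the female ones. The log2 fold change was 0.73 ± 0.17 in male VAT against male spleen Tregs (adjusted p = 0.00101) and 0.63 ± 0.17 in male VAT Tregs against male VAT CD4 cells (0.00680). Both calls were lost without male VAT Treg replicate 1, at 0.27 and 0.17. The first was also lost without male spleen Treg replicate 1 (0.64) and the second without male VAT CD4 replicate 2 (0.55). TMM on short regions ended both, and DESeq2 and a fit of only the groups compared ended the second. Female VAT Tregs had 0.30 against male spleen Tregs (adjusted p = 0.610). A short region 6.43 kb upstream, from 55499075 to 55499302, ran the other way between the sexes. It held 3.04 and 1.81 CPM in male VAT Tregs, 6.48 and 4.22 CPM in female VAT Tregs, 5.58 and 4.47 CPM in male VAT CD4 cells and 2.54 and 2.86 CPM in male spleen Tregs. In male against female VAT Tregs its log2 fold change was -1.10 ± 0.37 (adjusted p = 0.0804), and -1.56 with replicate 2 as the only male library. Against spleen, female VAT Tregs had 0.98 ± 0.37 there (adjusted p = 0.255).

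Nfkbiz encodes IkB zeta, a nuclear IkB protein that helps NF-kB switch on secondary response genes. It had 3 of 10 regions higher in male VAT than in male spleen Tregs, and all 3 lay outside the gene, 54.7 to 113 kb below it in coordinate. The farthest, on chromosome 16 from 55698357 to 55698812, held 10.3 and 6.71 CPM in male VAT Tregs, 2.89 and 2.23 CPM in female VAT Tregs, 1.54 and 3.17 CPM in male VAT CD4 cells and 1.82 and 1.97 CPM in male spleen Tregs. Both male VAT Treg libraries lay above the other 6, and the CD4 libraries spanned the female and spleen ones. The log2 fold change was 2.17 ± 0.36 against male spleen Tregs (adjusted p = 5.24e-07), a call kept under every alternative, 1.74 ± 0.36 against female VAT Tregs (2.56e-04) and 1.82 ± 0.38 against male VAT CD4 cells (1.66e-04). The call against females was lost without male VAT Treg replicate 1 (1.38, adjusted p = 0.0627) or female VAT Treg replicate 2 (1.57, 0.0653), and the call against CD4 cells without male VAT Treg replicate 1 (1.46, 0.0555). The others were a long region from 55752482 to 55756693 (0.66 ± 0.19) and a short one from 55734384 to 55734561 (1.64 ± 0.48), at 37.0 and 29.5 CPM and at 4.37 and 3.09 CPM in male VAT Tregs, against 20.8 and 21.5 CPM and 1.21 and 1.19 CPM in male spleen Tregs. Both calls were lost without male VAT Treg replicate 1 (0.48 and 1.36), male spleen Treg replicate 1 (0.63 and 1.65) or male spleen Treg replicate 2 (0.68 and 1.63), and both ended under DESeq2 and TMM on short regions, the short one also under limma-trend. The regions of the gene itself did not pass. The one over the upper edge of the gene body, shared with the neighbouring gene Nxpe3, held 30.0 and 23.8 CPM in male VAT Tregs and 21.8 and 18.98 CPM in male spleen Tregs (0.41, adjusted p = 0.216), and the one from 55819212 inside the body 54.8 and 44.2 CPM and 50.4 and 52.7 CPM (-0.05). In female VAT against male spleen Tregs no Nfkbiz region passed, the smallest p being that of a region 14.1 kb above the gene (-0.63 ± 0.44, adjusted p = 0.758).

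Bcl3 encodes a further nuclear IkB protein, which binds dimers of the p50 and p52 products. Neither of its regions passed in any comparison. The start region, on chromosome 7 from 19821218 to 19824514, held 21.7 and 17.2 CPM in male VAT Tregs, 17.4 and 18.6 CPM in female VAT Tregs, 20.02 and 19.2 CPM in male VAT CD4 cells and 15.6 and 15.3 CPM in male spleen Tregs. The spleen libraries were the lowest and the VAT groups overlapped (0.34 in male, adjusted p = 0.379, and 0.22 ± 0.21 in female VAT Tregs, 0.868). The region inside the gene, from 19815531 to 19819698, which the table also assigns to Cblc, had the smaller p against spleen (0.40 ± 0.18, adjusted p = 0.198), with 46.3 and 30.2 CPM in male VAT Tregs and 29.2 and 29.0 CPM in male spleen Tregs. Without male VAT Treg replicate 2 it was called (0.67, adjusted p = 0.00859), and without replicate 1 the value was 0.05. It was 0.31 ± 0.19 against female VAT Tregs (0.502) and 0.20 ± 0.19 against male VAT CD4 cells (0.677), where the sign turned without male VAT Treg replicate 1 (-0.05 and -0.15).

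Birc3 encodes cIAP2, a ubiquitin ligase of TNF receptor signalling that restrains the non-canonical pathway and is a known NF-kB target. Its start region, on chromosome 9 from 7870534 to 7875575, held 122 and 85.8 CPM in male VAT Tregs, 72.1 and 71.1 CPM in female VAT Tregs, 73.5 and 77.6 CPM in male VAT CD4 cells and 48.5 and 47.7 CPM in male spleen Tregs. All VAT libraries lay above spleen, and both male VAT Treg libraries lay above the other VAT libraries. Its log2 fold change was 1.11 ± 0.17 in male VAT against male spleen Tregs (adjusted p = 5.03e-08), kept under every alternative and 0.84 without male VAT Treg replicate 1. In male against female VAT Tregs it was 0.54 ± 0.17 (adjusted p = 0.0488), lost without male VAT Treg replicate 1 (0.26), female VAT Treg replicate 1 (0.55) or female VAT Treg replicate 2 (0.53). This call also ended under DESeq2, library size alone, TMM on short regions, a fit of only these groups, the replicate block and limma-trend. The differences of female VAT from male spleen Tregs (0.57 ± 0.17, adjusted p = 0.0645) and of male VAT Tregs from male VAT CD4 cells (0.46 ± 0.17, 0.0811) missed the threshold. The first was called by limma-voom and in a fit of only these groups. The second was called without male VAT Treg replicate 2 (0.69, 0.00206), with library size alone and with TMM on long regions. The 5 short Birc3 regions were not called in any comparison.

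Among the subunit genes, Nfkb1 had the most called regions. It encodes p105, the precursor of the p50 subunit, and its gene body on chromosome 3 runs from 135584655 to 135691969. All 18 regions lie inside the body or over its edge. The region from 135602800 to 135603059 held 8.55 and 4.26 CPM in male VAT Tregs, 0.797 and 1.99 CPM in female VAT Tregs, 3.85 and 2.74 CPM in male VAT CD4 cells and 0.727 and 0.716 CPM in male spleen Tregs. Male VAT Tregs lay above all other groups, CD4 cells came next, and female VAT and spleen Tregs were lowest. Its log2 fold change was 3.16 ± 0.46 against male spleen Tregs (adjusted p = 4.62e-09), kept under every alternative, and 2.25 ± 0.43 against female VAT Tregs (6.33e-05). The second was lost without male VAT Treg replicate 1 (1.63, adjusted p = 0.119) or female VAT Treg replicate 1 (1.70, 0.114). Against male VAT CD4 cells it was 1.00 ± 0.41 and was not called (adjusted p = 0.127).

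A second Nfkb1 region followed the Treg groups of VAT. From 135640216 to 135640567 it held 12.3 and 6.71 CPM in male VAT Tregs, 4.59 and 6.10 CPM in female VAT Tregs, 2.69 and 1.59 CPM in male VAT CD4 cells and 2.30 and 2.80 CPM in male spleen Tregs. Both Treg groups of VAT lay above CD4 cells and spleen Tregs, which overlapped. The log2 fold change of male VAT Tregs was 1.89 ± 0.32 against male spleen Tregs (adjusted p = 6.77e-07) and 2.21 ± 0.37 against male VAT CD4 cells (5.58e-07), and both calls held under every alternative. In female VAT against male spleen Tregs it was 1.03 ± 0.34 (adjusted p = 0.116), the smallest p of any Nfkb1 region there.

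Neighbouring regions from 135604313 to 135604530 and from 135604725 to 135604960 were called in male VAT Tregs against each of the other 3 groups they were set against. The first held 4.81 and 1.81 CPM in male VAT Tregs, 0.797 and 1.06 CPM in female VAT Tregs, 1.35 and 0.721 in male VAT CD4 cells and 1.58 and 0.656 in male spleen Tregs. The other held 10.3 and 4.48, 2.99 and 3.17, 2.12 and 2.45, and 3.39 and 4.24 CPM in the same 4 groups. Their excess was carried mainly by male VAT Treg replicate 1. Against male spleen Tregs the values were 1.72 ± 0.54 and 0.97 ± 0.32, against female VAT Tregs 1.88 ± 0.56 and 1.30 ± 0.34, and against male VAT CD4 cells 1.75 ± 0.60 and 1.72 ± 0.38. All 6 calls were lost without male VAT Treg replicate 1, with values of 0.78 and 0.21, 0.97 and 0.54, and 0.84 and 0.96. For the first region the calls were also lost without male spleen Treg replicate 2 (1.12), either female library (1.68 and 2.08) or either CD4 library (2.22 and 1.33). For the other they were lost without either spleen library (0.83 and 1.16) or either female library (1.25 and 1.34). Against spleen both ended under DESeq2, library size alone, TMM on short regions, the replicate block and limma-trend. Against females both ended under DESeq2, TMM on short regions and limma-trend, the first also under limma-voom, library size alone and the replicate block. Against CD4 cells the first ended under 7 settings, all but DESeq2 size factors, library size alone and a fit of only these groups.

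The other Nfkb1 calls were 2 against male spleen Tregs, starting at 135669575 (1.85 ± 0.62) and 135689035 (1.11 ± 0.37), and 3 against male VAT CD4 cells, starting at 135636527 (1.31 ± 0.42), 135669575 (2.17 ± 0.73) and 135674795 (1.08 ± 0.29). All 5 were lost without male VAT Treg replicate 1 (1.10, 0.95, 0.88, 1.43 and 0.85). Both calls against spleen were also lost without male spleen Treg replicate 1 (2.01 and 1.16) or replicate 2 (1.65 and 1.04). Those against CD4 cells were lost without male VAT CD4 replicate 1 (1.08, 2.59 and 0.75), and the first 2 also without replicate 2 (1.66 and 1.78). All 5 ended under DESeq2 and TMM on short regions. Both calls against spleen also ended under library size alone, the replicate block and limma-trend, the first of them also with TMM on long regions and with no low-count filter, and the second in a fit of only these groups. Against CD4 cells the first also ended under limma-voom and a fit of only these groups, and the second under limma-voom, no low-count filter, the replicate block and limma-trend. The region over the upper edge of the body, from 135689299 to 135693532, held 42.3 and 31.1 CPM in male VAT Tregs, 31.6 and 29.2 CPM in female VAT Tregs, 30.8 and 29.4 CPM in male VAT CD4 cells and 23.7 and 26.6 CPM in male spleen Tregs. It missed the threshold against spleen (0.55, adjusted p = 0.0506).

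**Figure D4:**
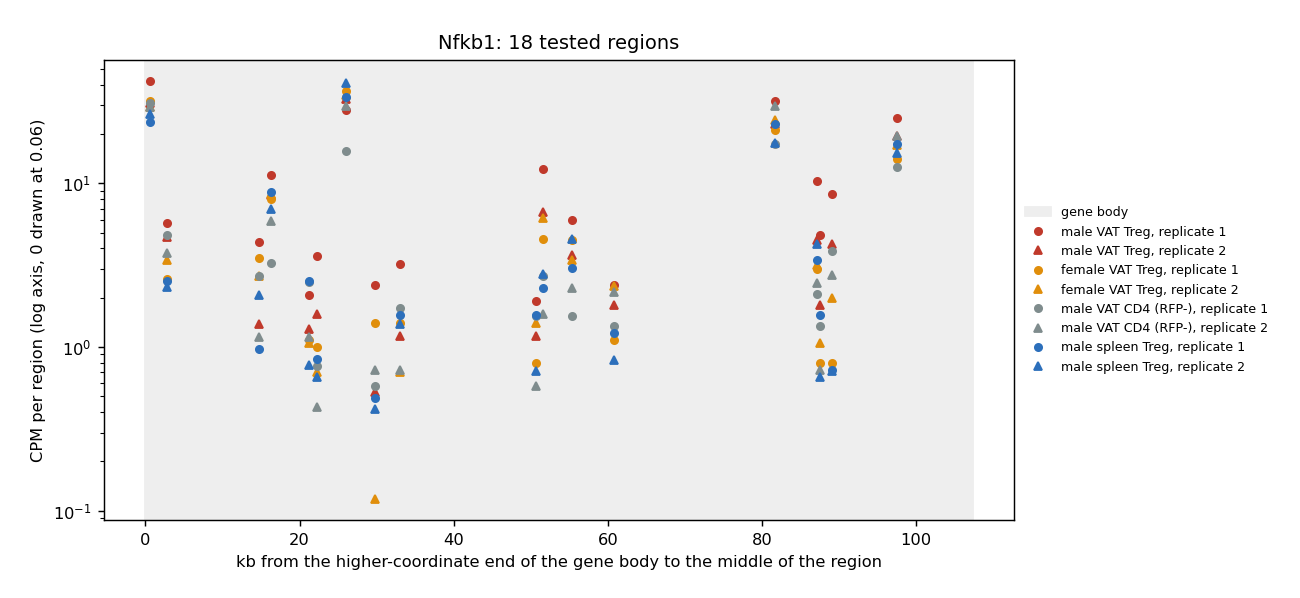
CPM of the 18 tested Nfkb1 regions in each of the 8 libraries, by distance in kb from the higher-coordinate end of the gene body to the middle of the region; circles and triangles are replicates 1 and 2, the band is the gene body and the axis is logarithmic. Male VAT Treg replicate 1 (red circles) is the highest library at most short regions, among them that from 135602800 with 8.55 CPM.

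Nfkb2 encodes p100, the precursor of p52. Its start region, on chromosome 19 from 46302542 to 46306607, which the table also assigns to 4833438C02Rik, held 51.2 and 28.5 CPM in male VAT Tregs, 44.9 and 42.9 CPM in female VAT Tregs, 27.7 and 29.3 CPM in male VAT CD4 cells and 24.4 and 32.8 CPM in male spleen Tregs. Both female VAT Treg libraries lay above both spleen libraries (0.61 ± 0.19, adjusted p = 0.0738, called in a fit of only these groups), while the male VAT Treg libraries overlapped every other group. The one Nfkb2 call was a short region 2.57 kb behind the gene, from 46314974 to 46315195, inside the body of Psd. It held 4.94 and 2.77 CPM in male VAT Tregs, 1.99 and 2.81 CPM in female VAT Tregs, 1.54 and 2.16 CPM in male VAT CD4 cells and 1.09 and 1.31 CPM in male spleen Tregs. All VAT libraries lay above spleen, and the log2 fold change of male VAT Tregs was 1.68 ± 0.46 (adjusted p = 0.00858). It did not pass without male VAT Treg replicate 1 (1.17), male spleen Treg replicate 1 (1.57) or male spleen Treg replicate 2 (1.84), or under DESeq2. No Nfkb2 region passed between the sexes (smallest p at this region, 0.72 ± 0.44, adjusted p = 0.502) or against CD4 cells. There the start region had 0.50 ± 0.19 (0.101), which was called with library size alone and without male VAT Treg replicate 2 (0.84, 5.03e-04) and was -0.0035 without replicate 1.

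Rel encodes c-Rel. Its start region, on chromosome 11 from 23769174 to 23773349, held 68.7 and 43.0 CPM in male VAT Tregs, 43.1 and 47.1 CPM in female VAT Tregs, 35.2 and 40.1 CPM in male VAT CD4 cells and 36.6 and 34.4 CPM in male spleen Tregs. Both Treg groups of VAT lay above CD4 and spleen cells. Male VAT Tregs had a log2 fold change of 0.67 ± 0.18 against male spleen Tregs (adjusted p = 0.00674) and 0.57 ± 0.18 against male VAT CD4 cells (0.0295). These were 0.28 and 0.19, neither called, without male VAT Treg replicate 1. The first was also lost without male spleen Treg replicate 1 (0.71) or 2 (0.62), and the second without male VAT CD4 replicate 1 (0.49) or 2 (0.67). TMM on short regions ended both, and DESeq2, a fit of only the groups compared, the replicate block and limma-trend ended the second. Female VAT against male spleen Tregs gave 0.35 ± 0.18 (adjusted p = 0.564).

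At a pair of short regions 47.8 and 52.3 kb upstream of Rel, the male VAT CD4 libraries were the lowest. From 23818808 to 23819065 there were 4.69 and 3.09 CPM in male VAT Tregs, 1.69 and 2.23 CPM in female VAT Tregs, 1.15 and 1.44 CPM in male VAT CD4 cells and 2.42 and 2.15 CPM in male spleen Tregs. From 23823299 to 23823432 there were 2.72 and 2.24, 2.39 and 2.11, 0.385 and 0.577, and 1.33 and 1.19 CPM in the same order. Male VAT Tregs were higher than male VAT CD4 cells by 1.58 ± 0.51 (adjusted p = 0.0299) and 2.32 ± 0.70 (0.0182) on the log2 scale. Both calls were lost without male VAT Treg replicate 1 (1.23 and 2.16), male VAT CD4 replicate 1 (1.45 and 2.09) or replicate 2 (1.76 and 2.66), and under DESeq2 and limma-voom, the first also under TMM on short regions. Between the sexes the region from 23818808 had the smallest p of Rel (1.01 ± 0.44, adjusted p = 0.242).

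Rela encodes p65, the main activating subunit of the canonical pathway. Its start region, on chromosome 19 from 5635675 to 5639296, held 22.7 and 10.9 CPM in male VAT Tregs, 21.7 and 21.9 CPM in female VAT Tregs, 12.3 and 19.7 CPM in male VAT CD4 cells and 17.8 and 14.7 CPM in male spleen Tregs. The male VAT Treg libraries spanned all other groups, and no comparison was called (0.09, adjusted p = 0.876 against male spleen Tregs). With male VAT Treg replicate 1 left out, the only male VAT Treg library, replicate 2, lay below the female ones there (log2 fold change -1.004). The other Rela region, shared with Sipa1, held 8.99 and 8.52 CPM in male VAT Tregs and 10.7 and 10.6 CPM in male spleen Tregs (-0.27 ± 0.24, adjusted p = 0.591). Between the sexes it had -0.47 ± 0.24 (0.360). The start region had 0.44 ± 0.21 in female VAT against male spleen Tregs (0.482) and 0.08 ± 0.22 against male VAT CD4 cells (0.923).

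Relb encodes the subunit that pairs with p52 in the non-canonical pathway. The long region over the upper edge of its body, on chromosome 7 from 19626383 to 19631102, shared with Clptm1, held 69.8 and 54.0 CPM in male VAT Tregs, 83.8 and 80.2 CPM in female VAT Tregs, 58.3 and 76.5 CPM in male VAT CD4 cells and 72.5 and 72.6 CPM in male spleen Tregs. Both male VAT Treg libraries lay below female VAT and spleen Tregs. In male against female VAT Tregs it was -0.40 ± 0.17 (adjusted p = 0.223), and -0.60 with replicate 2 as the only male library. The Relb region with the smallest p against male spleen Tregs lies 0.351 kb below the gene and inside Clasrp, and it held 11.8 and 8.31 CPM in male VAT Tregs and 14.3 and 12.7 CPM in male spleen Tregs (-0.39 ± 0.22, adjusted p = 0.342). That region also had the smallest p against male VAT CD4 cells (-0.21 ± 0.24). No Relb region passed with all libraries.

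**Figure D5:**
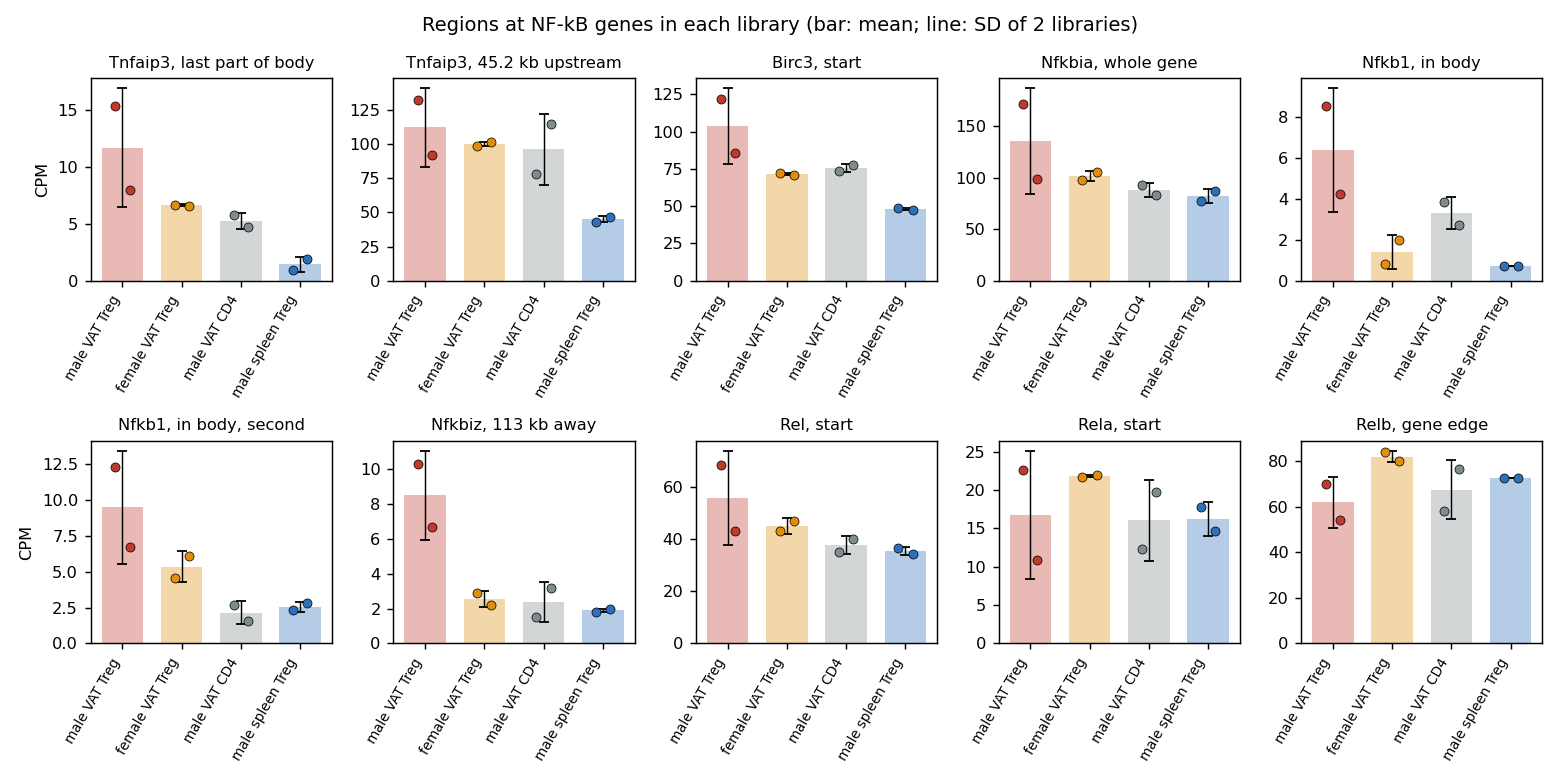
CPM of 10 member regions in each library (points), with the group mean (bar) and the SD of 2 libraries (line). At the Tnfaip3 region in the last part of the body, at the Tnfaip3 region 45.2 kb upstream and at the Birc3 start, every VAT library is above both spleen libraries; at the Rela start the male VAT Treg libraries span those of the other groups.

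Per length, accessibility summed over all tested regions of a gene differed more between groups at Tnfaip3 and Birc3 than at Rela or Relb. Tnfaip3 held 16.8 and 11.2 CPM per kb in male VAT Tregs, 11.9 and 11.8 CPM per kb in female VAT Tregs, 8.39 and 11.6 in male VAT CD4 cells and 6.10 and 6.50 in male spleen Tregs. Birc3 held 24.2 and 17.3, 14.6 and 14.1, 14.9 and 15.5, and 10.3 and 10.1 CPM per kb in the same groups. Within male VAT Tregs Birc3 had the highest mean (20.8 ± 4.89 CPM per kb, SD), then Rel (14.5 ± 4.51) and Tnfaip3 (14.0 ± 3.99), and Rela the lowest (4.01 ± 1.36). Rel lay slightly above Tnfaip3 in both libraries (17.7 against 16.8, and 11.3 against 11.2 CPM per kb), which was not tested. In male spleen Tregs Relb came first (11.5 ± 0.156), then Birc3 (10.2 ± 0.131) and Rel (9.67 ± 0.373). Summed over all members, short regions held 252 and 156 CPM in male VAT Tregs, 137 and 135 CPM in female VAT Tregs, 111 and 112 in male VAT CD4 cells and 96.6 and 95.7 in male spleen Tregs, without overlap between groups. Long regions held 1083 and 756 CPM, 822 and 831 CPM, 682 and 833 CPM, and 653 and 668 CPM in the same groups, where the 3 VAT groups overlapped.

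Other genes of the pathway were described from 4 lists. In male VAT against male spleen Tregs, 0 of 9 regions of other IkB genes (4 of 4 genes with a region) were called by edgeR, with 4.64% of all regions called higher and 2.09% lower. Of the genes of kinases and adaptors upstream of NF-kB, 6 of 75 regions were higher and 4 lower (17 of 17 genes). Other negative regulators had 4 of 50 higher and 0 lower (11 of 13 genes), and known NF-kB target genes 10 of 79 higher and 1 lower (22 of 24 genes). The medians of the 4 lists were -0.05, -0.08, 0.14 and 0.03, beside -0.01 over all regions. In female VAT against male spleen Tregs the counts higher and lower were 0 and 0, 1 and 0, 0 and 0, and 2 and 0 in the same order of lists, beside 1.18% and 0.197% of all regions. Male against female VAT Tregs gave 0 and 1, 0 and 2, 3 and 0, and 4 and 1, beside 2.04% and 1.21%. Male VAT Tregs against male VAT CD4 cells gave 0 and 0, 2 and 6, 5 and 1, and 14 and 1, beside 5.18% and 2.51%.

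The named regions of these lists include ones that kept their call under every alternative run. N4bp1, an RNA and ubiquitin binding protein that dampens NF-kB signalling, had a region 3.60 kb from its gene with 8.10 and 4.80 CPM in male VAT Tregs and 0.485 and 0.835 CPM in male spleen Tregs (3.19 ± 0.46, adjusted p = 4.65e-09). Bcl2l1, which encodes the survival protein Bcl-xL, had a region inside its gene with 17.5 and 9.80 CPM in male VAT Tregs and 1.33 and 2.86 CPM in male spleen Tregs (2.61 ± 0.30, 2.57e-14). A region 47.4 kb from Il2, the cytokine gene, held 7.53 and 4.902 CPM in male VAT Tregs and 0.727 and 0.656 CPM in male spleen Tregs (3.18 ± 0.44, 8.56e-10). In male VAT Tregs against male VAT CD4 cells, a region inside Traf3, the adaptor that holds back the non-canonical pathway, was higher (9.24 and 6.82 CPM against 1.92 and 2.31 CPM, 1.92 ± 0.36) and one inside Tab1, an adaptor of the kinase TAK1, was lower (1.46 and 0.639 CPM against 6.54 and 6.49 CPM, -2.54 ± 0.46). Others with small p did not hold without male VAT Treg replicate 1. In male VAT against male spleen Tregs these were Gadd45b, a stress response gene (2.86 ± 0.47, and 1.91 without that library), Tnip3, a partner of A20 (2.38 ± 0.57 and 1.98, and 2.02 without male spleen Treg replicate 2, where it was also lost), and Tax1bp1, an adaptor of A20 (2.07 ± 0.52 and 1.85). Of 28 such named results, 25 could be tested again without male VAT Treg replicate 1, and 14 of these lost their call.

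Regions of other genes whose accessibility was most like that of the Tnfaip3 region from 19001610 to 19002603 were sought among 8643 short regions with a mean of at least 2 CPM, by Pearson's r of log2 CPM over the 8 libraries. The 5 closest were at Gpr146 (with the neighbouring 3110082I17Rik, D830046C22Rik and Mir339; r = 0.99), 9930021J03Rik (0.98), Tbl1x (0.98), Gadd45a (with E230016M11Rik; 0.98) and Hlf (0.98). The 99th percentile over the candidates was 0.90. These values share libraries and depth and include male VAT Treg replicate 1, the highest library at all 5 regions, and they carry no test.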

How the data were processed

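Each of the 8 ATAC-seq libraries came from cells of 3 pooled mice, with 4 groups of 2 libraries. Per the submitters' processing notes, Subread 1.6.2, HOMER 4.9, featureCounts and limma were used on mm10 (GRCm38); how peaks were called is not given in the sources used here. The authors deposited raw counts per region, each region listed with a gene symbol. They also deposited log2 CPM per library, used here for 1 alternative. Of 62205 entries, 46624 were distinct regions, and 10329 of these are listed for several genes. Starts are printed as deposited, since whether they count from 0 or 1 is not stated.

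All 8 libraries entered 1 fit by edgeR 4.0.16 (R 4.3.3) quasi-likelihood with TMM factors of 0.908 to 1.06 and 4 residual degrees of freedom. Its default low-count filter was applied to the 46512 regions with a gene on chromosomes 1-19, X and Y. It kept 45709 regions (16363 short, 29346 long). P-values were adjusted by Benjamini-Hochberg over all of them, and the standard error is the fold change over the root of F. The scripts were tested on simulated data. The counts used were 5724685 to 15805270 per library, so short regions rest on few counts. Intervals and floors (3 counts) cover counting error only. Gene bodies are those of RefSeq (GRCm38.p6) and exons were not used. Alternatives were DESeq2 1.42.0, limma 3.58.1 (voom, and trend on the deposited log2 values), other scalings, no filter, 2 groups at a time, a replicate block, regions within 10 kb and leaving out each library.

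All 10 members were named: their start region, up to 3 called regions with the smallest p per comparison in full, and otherwise the region with the smallest p. From each pathway list up to 3 genes were taken by p, of which a selection is printed, and 1 named result is not reported here. The members and lists were chosen with earlier results of these data known. Labels give both spleen libraries as male, although the design text speaks of female spleen, and the labels were followed.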

Additional observations from a re-analysis of the deposited data

How the results depend on the processing

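Leaving out each library in turn gave 13 to 34 member regions higher in male VAT against male spleen Tregs (27 with all libraries), 5 to 7 in female VAT against male spleen Tregs (9), 0 to 14 in male against female VAT Tregs (6, and 0 to 3 lower) and 2 to 24 in male VAT Tregs against male VAT CD4 cells (20). Over all regions the calls were 1605 to 3206, 227 to 340, 410 to 1554 and 1644 to 3993 in the same comparisons, against 3077, 631, 1489 and 3514. Of the member calls, 13 of 27, 4 of 9, 0 of 6 and 2 of 20 held under every alternative run.

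In male VAT against male spleen Tregs the members higher were 27 in the main fit. They were 18 by DESeq2 and with TMM on short regions, and 22 by limma-trend on the deposited log2 values. The highest count under another test or setting was 28, as by limma-voom. DESeq2 called 1362 regions in all and limma-trend 1923. In female VAT against male spleen Tregs the members higher ran from 6 by DESeq2 to 12 in a fit of only those 2 groups. Over all regions DESeq2 called 281, TMM on short regions 299 and the fit of only those 2 groups 1124. In male against female VAT Tregs the members higher were 2 by DESeq2, 3 with library size alone, 2 with TMM on short regions, 3 with the replicate block and 2 by limma-trend, and all calls were 506 by DESeq2, 966 with TMM on short regions and 754 by limma-trend. In male VAT Tregs against male VAT CD4 cells the members higher were 5 by DESeq2, 11 by limma-voom and 7 with TMM on short regions (1 lower there), and DESeq2 called 1860 regions in all. The cause was not tested.

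TMM on short regions moved the median of all regions to -0.17, -0.07, -0.09 and -0.25 in the 4 comparisons, with 1310 higher and 1658 lower, 250 and 49, 487 and 479, and 1219 and 1998, against 2120 and 957, 541 and 90, 934 and 555, and 2368 and 1146. Library size alone moved the last median to 0.11, with 2861 higher and 673 lower.

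Signs turned for values that were not called. In male VAT Tregs against male VAT CD4 cells, with TMM on short regions the Rela start region had -0.19 and the Bcl3 region inside the gene -0.044. Without single libraries the Rela value ran from -0.58 to 0.48, that of Bcl3 from -0.15 to 0.46 and the Nfkb2 start region from -0.0035 to 0.84, and in male against female VAT Tregs the Bcl3 region from -0.046 to 0.57.

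The replicate numbers are not stated to pair libraries, and whether same-numbered libraries shared mice is not known. Their deviations from the group means had r of -0.146 to 0.0666 between groups. With means of 2 libraries these values cannot decide it. The replicate block gave 23 members higher in male VAT against male spleen Tregs. With 2 libraries a group and short regions of few counts, small differences were not detectable at this depth.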
